A study of Mus musculus with 2 samples.

Results

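The genes of collagens, laminins and integrins were read from RNA-seq of dorsal root ganglion (DRG) sensory neuron preparations. Members were every listed symbol of the form Col with a type and chain number, Lam with a chain letter and number, Itga or Itgb, with TPM, a transcript level scaled for transcript length and for the total of the library, summed over the transcripts of a gene. This found 81 genes of 24411: 55 matrix genes, of which 44 encode collagen chains and 11 laminin chains, and 26 integrin genes. The choice used gene symbols and no measured value. The data were 2 libraries, each from the pooled DRG neurons of 10 male C57BL/6J mice (labelled C57BL/6) bought at an age of 6 to 8 weeks. In the control group mice received 50% alum alone, an aluminium salt adjuvant, and in the other group 50% alum with keyhole limpet hemocyanin (KLH), a mollusc protein used as antigen, at 100 µg. Injections into the peritoneal cavity were given on days 0 and 14, thoracic and lumbar DRGs were taken on day 28, and no untreated mice were sequenced. The control library is labelled both as naïve and as alum alone, and was taken as alum-injected. The libraries are called the alum pool and the KLH pool, the second standing for alum with KLH. There was 1 library per group, so no value has a replicate error, no test was made, and every difference describes 2 pools and not the immunization.

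Collagens are trimers of chains built of triplets that open with glycine, and laminins are trimers of 1 α, 1 β and 1 γ chain. Collagen IV and laminins build the basement membrane, the thin sheet that wraps each Schwann cell and each unit of a sensory neuron with its satellite glia. Fibrillar collagens I, III and V make the connective tissue between these units, and fibroblasts are known for their synthesis. Integrins are αβ dimers in the cell membrane that bind these molecules and link them to the actin cytoskeleton. Integrins that pair with the β1 chain are known in sensory neurons for outgrowth of axons on laminin and in Schwann cells for sorting and myelination of axons. DRGs were digested with collagenase and dispase before neurons were enriched on a density gradient and depleted of B cells with beads, so the values describe dissociated cells and not intact ganglia.

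The preparations were checked against marker lists. All 11 neuronal genes were above 3 TPM, the study's threshold for detection, in both pools, with values from 44.6 to 6177 TPM. Of the other cell types, 8 of 11 Schwann cell genes, 8 of 8 satellite glia genes and 5 of 11 fibroblast genes were above 3 TPM in each pool. The same held for 2 of 9 endothelial genes, 1 of 8 mural genes and 1 of 11 leukocyte genes. Of all genes, 46.9% passed 3 TPM in the alum pool and 46.3% in the KLH pool. The fibroblast share was near this, and the endothelial, mural and leukocyte shares were below it. The pools thus held RNA of glia beside that of neurons, while these counts do not settle the other types. In such bulk samples fewer cells of a type and less RNA per cell cannot be told apart.

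Of the 81 members, 25 were above 3 TPM, and the 25 were above it in both pools with TPM summed per gene. They were 12 of 44 collagen genes, 4 of 11 laminin genes and 9 of 26 integrin genes, while 46.9% of all genes passed 3 TPM in the alum pool and 46.3% in the KLH pool. Integrin transcripts summed to 672.9 and 669.2 TPM, collagens to 156.2 and 154.1 TPM and laminins to 54.9 and 50.4 TPM in the alum-injected and the KLH pool. The median member was at 0.80 and 0.79 TPM, below the 2.15 and 2.00 TPM of the median gene. The families were thus held by a few genes, with most members low. No member was at 0 in both pools. Col2a1 and Col9a1 were listed at 0 in the alum pool and Col17a1 and Itgb2 in the KLH pool.

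**Figure D1:**
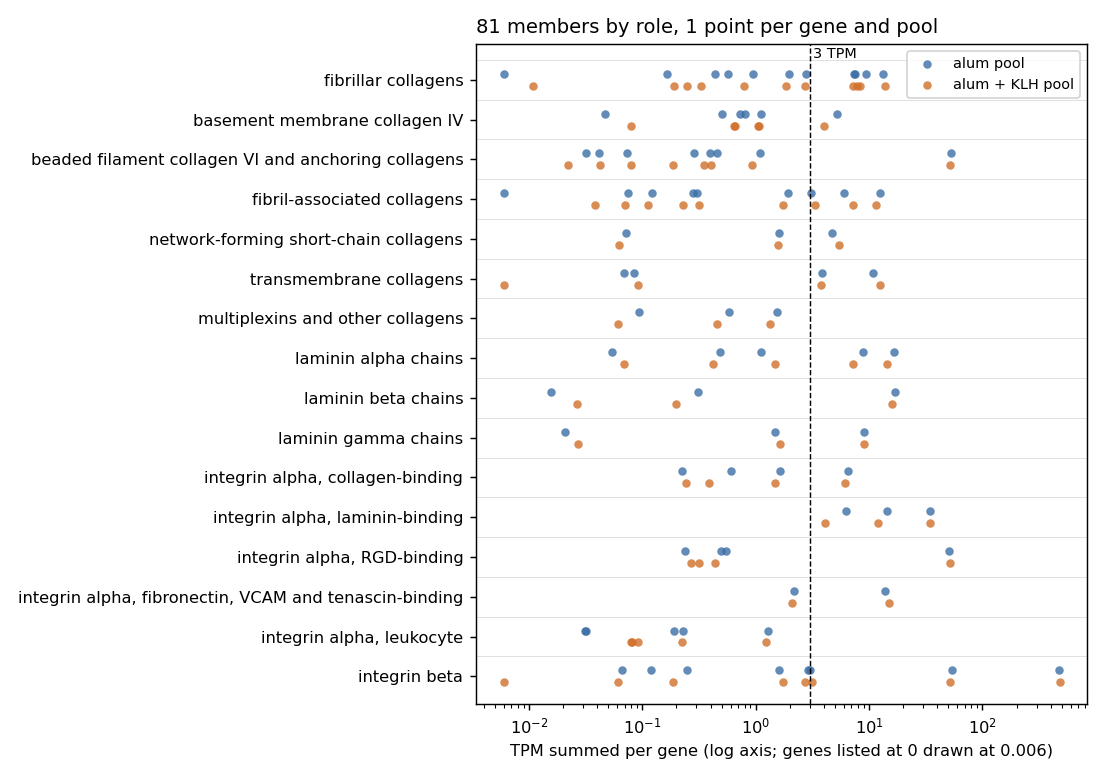
TPM summed per gene (log axis) of the 81 members in the alum pool (blue) and the KLH pool (orange), in rows by the role of the gene. The dashed line is the detection threshold of 3 TPM, genes listed at 0 are drawn at the left edge, and 25 members lie above the threshold in both pools.

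Among fibrillar collagens, 4 of 11 genes were above 3 TPM. Col11a1, a chain of the thin fibrils of collagen XI, was the highest at 13.3 TPM in the alum pool and 13.8 TPM in the KLH pool. Col5a2, a chain of collagen V, which nucleates fibrils, was at 9.41 and 7.83 TPM. Col1a2, the α2 chain of collagen I, was at 7.57 and 7.26 TPM and Col24a1 at 7.40 and 8.28 TPM. The genes best known from connective tissue were low beside them. Col3a1 was at 2.78 and 2.73 TPM and Col1a1, the main chain of collagen I, at 0.44 and 0.25 TPM. The remaining 5 fibrillar genes were Col5a3, at 1.97 and 1.86 TPM, and 4 genes below 1 TPM in both pools.

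The most abundant collagen gene was Col28a1 (NM_001037865, minus strand of chr6:7997808-8192617 of GRCm38, 35 exons), at 53.2 and 51.5 TPM. Collagen XXVIII has von Willebrand factor A domains and is known from basement membranes of peripheral nerve, around glia that do not form myelin. Col28a1 held 34% of all collagen TPM in the alum pool and 33.4% in the KLH pool, and was 3.99 and 3.73 times as high as Col11a1, the next collagen. In comparison, 14.6% and 14.9% of all genes exceeded it. The 7 other genes of its list, the chains of the beaded filament collagen VI and the anchoring fibril gene Col7a1, were at 1.1 TPM or below.

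Of the 6 genes of collagen IV, the network of the basement membrane, only Col4a1 was above 3 TPM, at 5.22 and 4.04 TPM. The other five ranged from 0.046 to 1.12 TPM. Among 9 fibril-associated collagens, which sit on the surface of fibrils, Col12a1 was at 12.4 and 11.5 TPM, Col19a1 at 6.06 and 7.16 TPM and Col14a1 at 3.06 and 3.35 TPM. The network-forming Col8a1 was at 4.68 and 5.39 TPM. Of 4 transmembrane collagens, Col25a1, known in neurons for motor innervation of muscle, was at 10.8 and 12.4 TPM and Col23a1 at 3.83 and 3.80 TPM. Col15a1, Col18a1 and Col26a1 were all below 1.6 TPM.

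Laminin genes above 3 TPM were 1 β chain, 1 γ chain and a pair of α chains. Lamb1 was at 16.8 and 15.8 TPM, Lama4 at 16.6 and 14.5 TPM, Lamc1 at 9.07 and 9.04 TPM and Lama2 at 8.93 and 7.22 TPM. Lama2, Lamb1 and Lamc1 encode the chains of laminin-211, the main laminin of the Schwann cell basement membrane, and Lama4 with the same β and γ chains encodes laminin-411. Lama4 was 1.86 times as high as Lama2 in the alum pool and 2.01 times in the KLH pool. The chains of other laminins were low. Lama5 was at 0.054 and 0.069 TPM, Lamb2 at 0.31 and 0.20 TPM, and Lama1, Lama3, Lamb3 and Lamc3 were at 1.49 TPM or below.

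**Figure D2:**
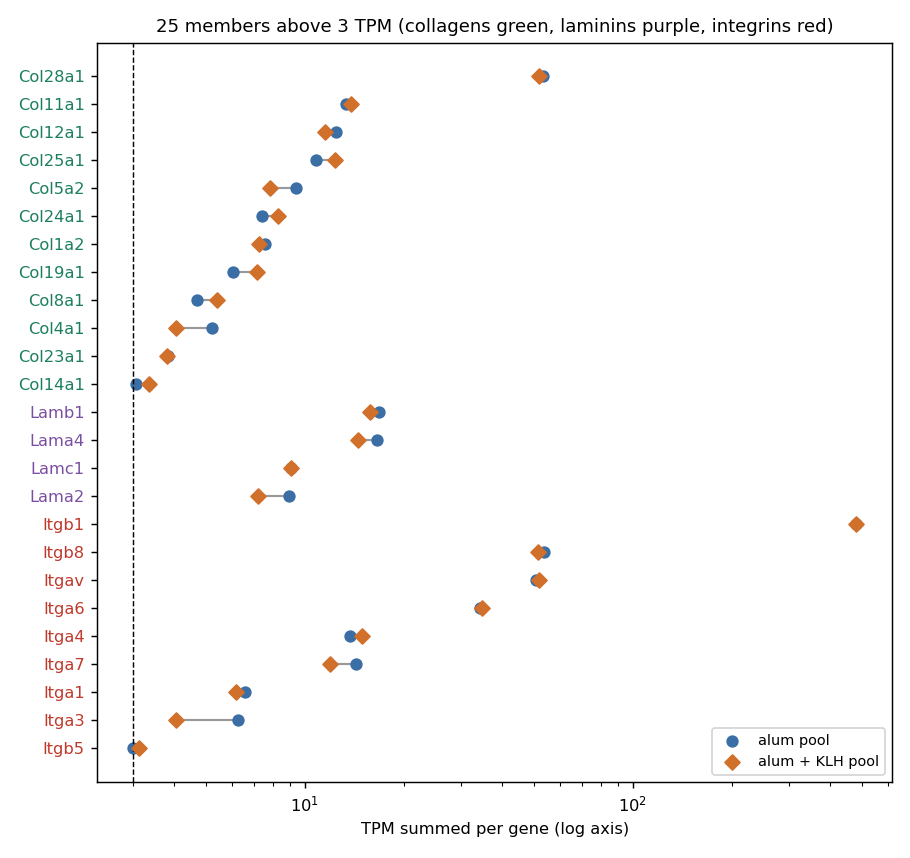
TPM summed per gene (log axis) of the 25 members above 3 TPM, 1 row per gene, in the alum pool (circles) and the KLH pool (diamonds), with gene names coloured by family. Itgb1 at 477.9 and 479.5 TPM stands apart, Col28a1 is the highest matrix gene, and the widest gap between pools is that of Itga3.

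Integrin β1, Itgb1 (NM_010578, plus strand of chr8:128685654-128733200, 16 exons), was at 477.9 and 479.5 TPM, and 1.5% and 1.51% of all genes were higher. It held 71.0% and 71.7% of all integrin TPM. The β1 chain pairs with 12 α chains, whose genes together summed to 131.4 and 128.3 TPM, so that Itgb1 was 3.64 and 3.74 times as high as all its partners. These are mRNA levels per transcript length and not amounts of protein. Of the other β chains, Itgb8 was at 53.7 and 51.5 TPM and Itgb5 at 3.002 and 3.13 TPM, barely above the threshold. Itgb6 lay just under it at 2.88 and 2.73 TPM. Itgb4, the partner of α6 in hemidesmosomes and in myelinating Schwann cells, was at 0.25 and 0.19 TPM.

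The α chains above 3 TPM were 6 of 18. Itgav, which binds the RGD sequence of vitronectin, fibronectin and latent TGF-β, was the highest at 50.6 and 51.7 TPM. Itgb8 pairs with αv alone, and the ratio of Itgb8 to Itgav was 1.06 and 0.996. All 3 laminin-binding chains were above 3 TPM. Itga6 was at 34.2 and 34.6 TPM, Itga7 at 14.3 and 11.9 TPM and Itga3 at 6.27 and 4.05 TPM. Of 4 collagen-binding chains only Itga1 passed, at 6.59 and 6.15 TPM, while Itga2, Itga10 and Itga11 were at 1.63 TPM or below. Itga4, a receptor for VCAM-1 and fibronectin, was at 13.7 and 15.0 TPM, and Itga9 at 2.18 and 2.11 TPM. Itga5, the main fibronectin receptor chain, was at 0.54 and 0.32 TPM. The 5 leukocyte α chains, Itgad, Itgae, Itgal, Itgam and Itgax, summed to 1.76 and 1.72 TPM, while Itgb2, which pairs with all of them but Itgae, was at 0.067 TPM and at 0. Itgb7, the partner of Itgae, was at 0.12 and 0.061 TPM.

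The 2 transcripts of Itga6 in the files differ in the exon that encodes the cytoplasmic tail. NM_008397 carries a coding stretch of 105 bases (plus strand of chr2:71853534-71853638, exonic) that NM_001277970 skips, giving the A and B forms of the α6 tail. It is shown because 1 form carries it and the other skips it, with capitals at the codons of the membrane-proximal motif shared by integrin α tails.
Itga6 A exon: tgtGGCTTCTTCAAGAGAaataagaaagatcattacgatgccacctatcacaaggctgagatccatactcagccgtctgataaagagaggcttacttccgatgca
The A form was at 29.99 TPM in the alum pool and 31.3 TPM in the KLH pool, which was 87.7% and 90.5% of Itga6. The B form was at 4.2 and 3.28 TPM. The division rests on the assignment of reads by kallisto, and for other genes it was uneven between the pools. For Itgb5, NM_010580 was at 4.40e-10 TPM in the alum pool and 1.26 TPM in the KLH pool. Taken by their highest transcript alone, Itgb5 and Itga3 were below 3 TPM in the KLH pool, at 1.87 and 2.07 TPM. For Col25a1, NM_001244952 held 99.4% and 72.3% of the gene.

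Some chains that assemble into the same molecule were far apart in level and others were close. Collagen I contains α1 and α2 chains, and Col1a2 was 17.3 times as high as Col1a1 in the alum pool and 29.0 times in the KLH pool. Col5a2 was 16.5 and 23.6 times as high as Col5a1. Col4a1 was 4.68 and 3.83 times as high as Col4a2, although both chains enter the same trimer and the RefSeq starts of the genes lie 21 bases apart on opposite strands of chromosome 8. Col8a1 was 64.9 and 87.2 times as high as Col8a2 and Col11a1 80.2 and 72.9 times as high as Col11a2. Col6a1 and Col6a2, in contrast, differed by 1.38 and 1.87 times, though both were below 1 TPM. Col6a3, of the same collagen, was 2.78 and 2.62 times as high as Col6a1 and 3.83 and 4.91 times as high as Col6a2. Lamb1 and Lamc1 of laminin-211 differed by 1.85 and 1.75 times. The 7 collagen types with more than 1 listed chain gave 39 pairs of chains. The order of levels was the same in both pools for 38, the exception being Col4a2 and Col4a5. Only 10 of the 39 had a chain above 3 TPM, and pairs share chains. The share for pairs of other genes was not computed, so it is not known whether the count is particular to collagens. For ratios against genes below 1 TPM the number of reads is unknown, and no interval can be given.

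**Figure D3:**
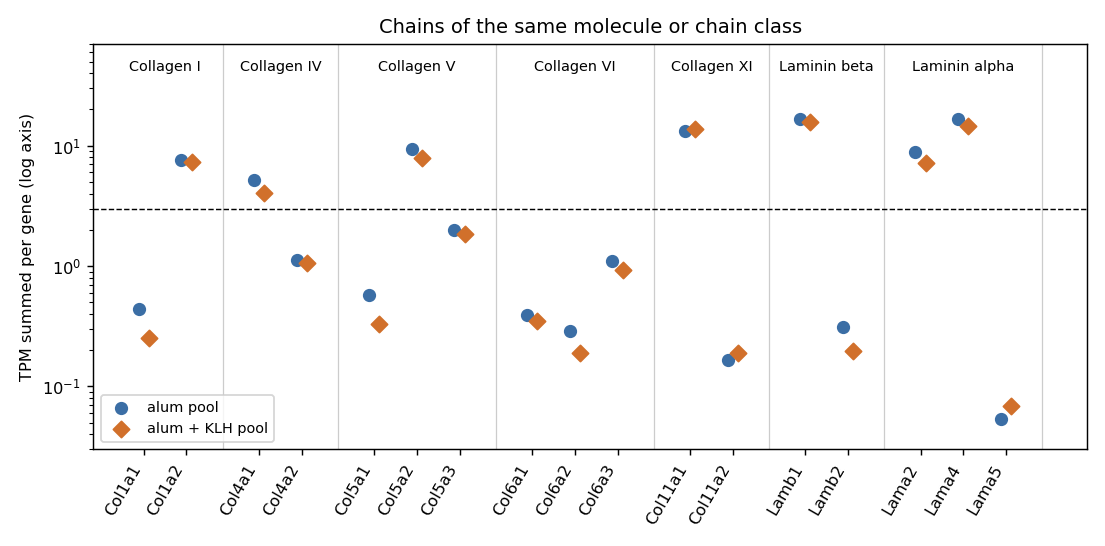
TPM summed per gene (log axis) of chains of the same collagen, or of the same class of laminin chain, in the alum pool (circles) and the KLH pool (diamonds). The dashed line is 3 TPM, and within collagens I, IV, V and XI and laminin β only 1 chain lies above it, in both pools.

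Coding stretches of the collagen repeat are given for chains of unequal level. The stretches below are 90 coding bases each, from the middle of the longest uninterrupted run of glycine triplets of the annotated transcript, and are shown so that the shared repeat can be compared. Capitals mark the glycine codon that opens each of the 10 triplets, and all stretches are coding exon sequence of GRCm38.
Col1a1 (plus strand, chr11:94945395-94945571, 2 exons): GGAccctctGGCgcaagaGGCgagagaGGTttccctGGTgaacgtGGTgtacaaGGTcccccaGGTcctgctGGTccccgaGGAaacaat
Col1a2 (plus strand, chr6:4525909-4527126, 2 exons): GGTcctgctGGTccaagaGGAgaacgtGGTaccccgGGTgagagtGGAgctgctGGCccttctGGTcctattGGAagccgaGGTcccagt
Col4a1 (minus strand, chr8:11245773-11246880, 3 exons): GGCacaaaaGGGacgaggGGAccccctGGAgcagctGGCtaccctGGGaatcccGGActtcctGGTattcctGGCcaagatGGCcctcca
Col4a2 (plus strand, chr8:11433662-11433751, 1 exon): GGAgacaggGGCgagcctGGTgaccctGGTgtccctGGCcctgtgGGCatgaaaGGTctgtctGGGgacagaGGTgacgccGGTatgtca
Col5a1 (plus strand, chr2:28003897-28004077, 2 exons): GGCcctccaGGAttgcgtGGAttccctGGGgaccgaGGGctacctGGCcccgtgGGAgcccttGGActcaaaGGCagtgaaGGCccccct
Col5a2 (minus strand, chr1:45396088-45396467, 2 exons): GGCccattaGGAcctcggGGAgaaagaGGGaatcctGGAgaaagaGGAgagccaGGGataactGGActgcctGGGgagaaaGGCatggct
Col28a1 (minus strand, chr6:8154174-8158147, 3 exons): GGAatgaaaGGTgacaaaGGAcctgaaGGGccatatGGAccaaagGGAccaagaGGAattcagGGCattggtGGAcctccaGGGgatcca
The longest run without an interruption was 338 triplets in Col1a1 and Col5a1 and 339 in Col1a2 and Col5a2, which make fibrils. It was 40 triplets in Col4a1, 66 in Col4a2 and 28 in Col28a1. In the stretch of Col28a1 53.3% of bases were G or C, in that of Col5a2 57.8% and in that of Col5a1 67.8%. The stretches of Col1a2 and Col1a1 were at 62.2% and 61.1%, and those of Col4a1 and Col4a2 at 63.3% and 64.4%. Over whole transcripts, GC content was 49.6% for Col28a1, 49.6% for Col5a2 and 58.0% for Col5a1, 55.7% for Col1a2 and 58.9% for Col1a1, and 57.7% for Col4a1 and 60.6% for Col4a2. Within collagen types, the more abundant chain had the lower GC content in 16 of the 39 pairs and the higher in 23. Pairs share chains and most are of collagens IV and VI, so these counts give no general order. Among the 10 pairs with a chain above 3 TPM the counts were 6 and 4. The 4 were the pairs of Col4a1 with Col4a3, Col4a4, Col4a5 and Col4a6. In types I, V, VIII and XI the higher chain of each such pair had the lower GC content.

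GC content was also compared across the families. Matrix genes above 3 TPM in each pool were 6 of 7 with a GC content from 45% to 50%, 6 of 20 from 50% to 55% and 4 of 28 at 55% or more, with no matrix gene under 45%. Integrin genes were 5 of 7 under 45%, 1 of 4 and 0 of 7 in the next classes and 3 of 8 at 55% or more, so their share did not fall steadily. Together, members above 3 TPM in each pool were 5 of 7 with a GC content under 45%, 7 of 11 from 45% to 50%, 6 of 27 from 50% to 55% and 7 of 36 at 55% or more. Across the 81 members, Spearman's correlation of GC content with the level was -0.51 in the alum pool and -0.54 in the KLH pool. Across all 23880 genes with a sequence it was -0.071 and -0.083. These are correlations across genes that share 2 libraries, given as a description. Among all genes, detection was also lowest in the class of 55% or more, at 35.7% and 33.3%, but did not differ as steeply below it, with 46.7% under 45% and 50.6% from 50% to 55% in the alum pool. Whether base composition had a part in the levels of single members was not tested.

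**Figure D4:**
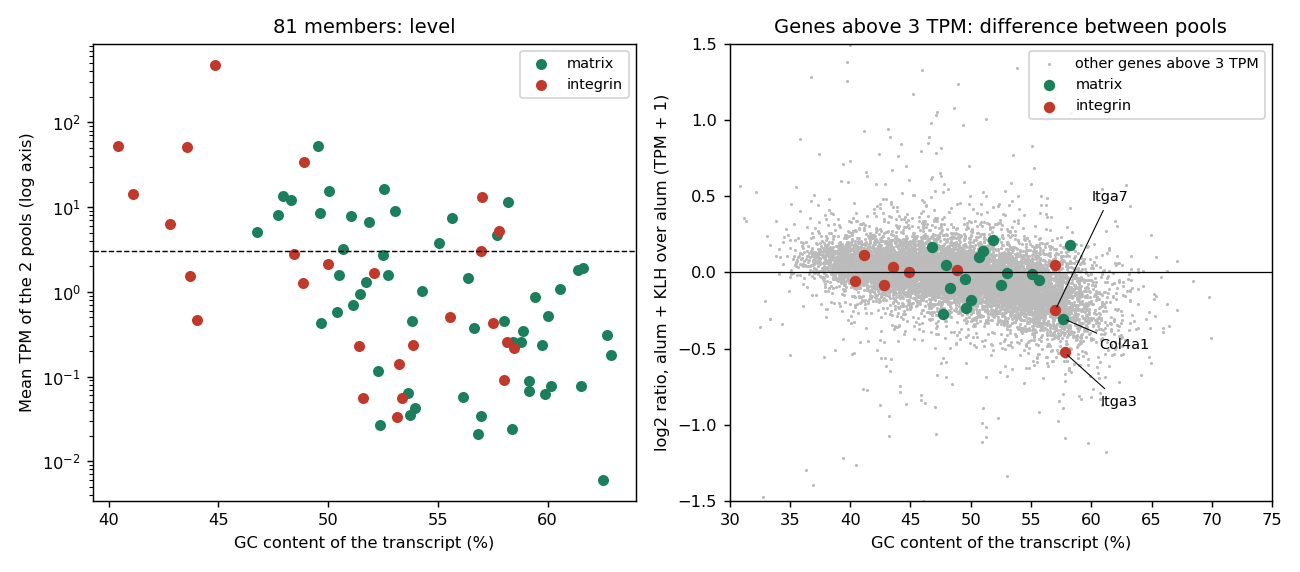
Left, the mean TPM of the 2 pools (log axis) against GC content of the transcript for the 81 members, with matrix genes in green, integrin genes in red and the dashed line at 3 TPM. Right, the log2 ratio of (TPM + 1), alum + KLH over alum, against GC content for genes above 3 TPM in at least 1 pool, with 162 other genes beyond the axes; Itga3, Col4a1 and Itga7 lie at 57.0% GC or more, where most genes were lower in the KLH pool.

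For the comparison, (TPM + 1) of the KLH pool was divided by (TPM + 1) of the alum pool and given as a log2 ratio, for genes above 3 TPM in at least 1 pool. The added 1 TPM understates the difference of low genes. Of the 16 matrix genes and 9 integrin genes compared, 0 were 2-fold or more apart, where 1.64% of all 11648 genes compared were, 0.695% higher and 0.944% lower in the KLH pool. With a smaller limit, a log2 ratio of at least 0.32 in size, 0 members were higher and 1 was lower, the integrin gene Itga3. Of all genes 7.68% passed that limit, 2.29% higher and 5.39% lower.

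By family, 6 of 12 collagen genes had a ratio above 0 and 6 below, with a median log2 ratio of 0.020. The 4 laminin genes had ratios from -0.27 to -0.005, with a median of -0.13, and Lamc1 came to lie above 0 after scaling by the median ratio of the pools or centring by GC class. Of the 9 integrin genes 5 had a ratio above 0 and 4 below, with a median of 0.005, but Itga6, Itgav, Itgb1 and Itgb5 turned below 0 when scaled to Hprt. The median over all genes was -0.020, and 56.4% of all genes were lower in the KLH pool.

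Ratios were also set against the SD over the 500 genes closest in level, and 3 of the 25 members lay beyond it, against 17% of all genes. This SD describes how far genes of like level lay apart between these libraries, and is no error of a gene. Itga3, a laminin-binding chain, had the lowest ratio, at -0.53 with an SD of 0.23, and its level in the alum pool was 1.55 times that in the KLH pool. Of its 3 transcripts, NM_001306162 was at 3.53 and 2.07 TPM, NM_001306071 at 2.74 and 1.97 TPM and NM_013565 was listed at 0 in both pools. Col4a1 had a ratio of -0.30 with an SD of 0.24 and Itga7 one of -0.25 with an SD of 0.21. The largest ratio above 0 was that of Col19a1, 0.21 with an SD of 0.22.

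GC content moved with the ratio over all genes. The Spearman correlation between them was -0.46 across 11504 genes, and -0.14 across the 25 members. Of all genes at 55% GC or more 84.6% were lower in the KLH pool, with a median log2 ratio of -0.16, and of all genes under 45% GC 33.2% were lower. Itga3, Col4a1 and Itga7 had a GC content of 57.8%, 57.7% and 57.0%. Relative to the median of their GC class their ratios were -0.36, -0.14 and -0.084. The part of base composition in these differences was not tested further.

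**Figure D5:**
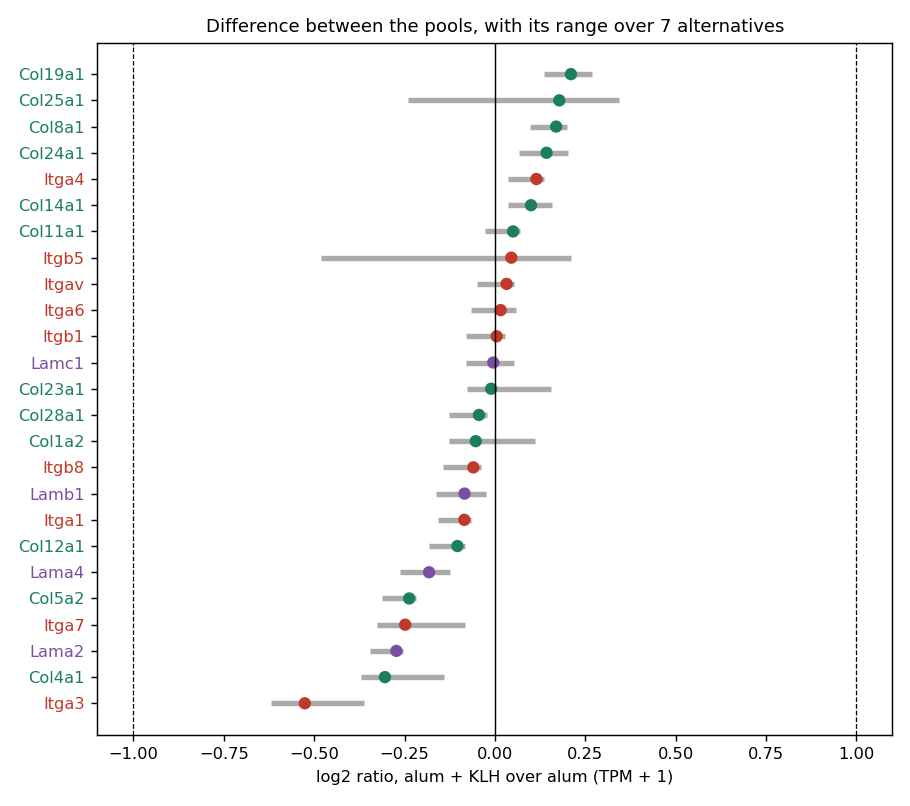
The log2 ratio of (TPM + 1), alum + KLH over alum, of the 25 members above 3 TPM (points, coloured by family) with its lowest and highest value over 7 alternative ways of computing it (grey bars). The dashed lines mark a 2-fold difference, which no member reached, and Itga3 has the lowest ratio at -0.53.

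Marker lists were also compared, and most of their genes were lower in the KLH pool. Of the endothelial genes 9 of 9 were lower, with a summed level of 18.5 and 13.8 TPM, although 7 of the 9 were under 3 TPM, and Cldn5 was at 0.14 TPM in the alum pool and listed at 0 in the other. Of the mural genes 7 of 8 were lower (178.3 and 167.5 TPM), almost all of that sum being Rgs5. Satellite glia genes were lower for 8 of 8 (1640 and 1522 TPM), of which Kcnj10, Cdh19 and Ednrb had ratios closer to 0 than the shift made by median scaling. Schwann cell genes were lower for 8 of 11 (2339 and 2287 TPM) and neuronal genes for 8 of 11. Fibroblast genes were lower for 6 of 11 (166.3 and 165.0 TPM). These counts took genes at any level. Of all 24411 genes at any level, 10984 were lower, 8612 were higher and 4815 were at 0 in both pools. Of all genes above 3 TPM, 56.4% were lower. The part of these cells in the values of the members was not tested.

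Partners of the members were read from further lists. Of 28 other matrix genes 13 were above 3 TPM in both pools, led by the matricellular genes Sparcl1 at 364.3 and 389.7 TPM and Sparc at 172.3 and 150.3 TPM. They were followed by Postn, which encodes periostin, at 96.1 and 87.9 TPM and Dcn, which encodes the collagen-binding proteoglycan decorin, at 63.8 and 62.6 TPM. The median log2 ratio of the 13 was -0.045. Of 26 genes that modify, fold or crosslink collagen chains 17 were above 3 TPM in at least 1 pool, with a median of -0.007. Ppib, a prolyl isomerase of the endoplasmic reticulum, was at 131.2 and 163.8 TPM, P4hb, a subunit of prolyl 4-hydroxylase, at 76.4 and 79.8 TPM, and the collagen galactosyltransferases Colgalt2 and Colgalt1 at 50.1 and 50.9 TPM and at 38.7 and 38.9 TPM. Of 30 integrin adaptor and signalling genes 21 were above 3 TPM, with a median of -0.084. Fermt2, which encodes the integrin activator kindlin-2, was at 194.4 and 182.6 TPM. Its companions at the integrin tail were also high, with Lims1 at 182.3 and 192.5 TPM, Parva at 150.8 and 142.2 TPM and Vcl, which encodes vinculin, at 131.2 and 128.8 TPM. The leukocyte kindlin gene Fermt3, named after its values were seen, was at 0.075 and 0.086 TPM. Of the genes of these 3 lists above 3 TPM in at least 1 pool, none differed by 2-fold between the pools.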

How the data were processed

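RNA-seq libraries were prepared by the authors with a stranded mRNA kit, and the reads were trimmed with cutadapt and quantified with kallisto against annotated mouse RefSeq transcripts (mm10). Tool versions are not given in the sources used here. The deposited values are TPM per transcript. They hold no read counts, so the depth behind each value is unknown, no interval or detection floor was computed, and use of strand in the quantification is not stated. TPM was summed per gene over 35034 rows.

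Genes above 3 TPM were called detected. Log2 ratios of the KLH pool over the alum pool took 1 TPM added to both values and were set beside the SD over the 500 genes closest in level. Members could be named, and the value of 1 is not reported here; of other lists, the 4 genes with the highest mean and any gene at least 2-fold apart. The members and lists were chosen with earlier results of these data known. Positions, GC content and sequences came from GENCODE M21 (GRCm38, the assembly of mm10) through its RefSeq links, which gave a sequence for all 81 members and 23880 of 24411 genes. The start sites of Col4a1 and Col4a2 came from RefSeq (GRCm38.p6). Of the 25 detected members, 4 (Itga1, Itga4, Itga6 and Itgb5) shared over 5% of their 31-mers with transcripts of other genes, at most 13.2%, for Itga4, which overlaps Cerkl on the opposite strand. Python 3.11.15, numpy 2.4.6, pandas 2.3.3 and matplotlib 3.10.9 were used. Calls were tried on simulated data, with changes of more than 2-fold placed only in genes above 10 TPM. That trial does not cover smaller differences or lower genes. Alternatives were pseudocounts of 0.1 and 0.5 TPM, thresholds of 1 and 10 TPM, no filter, scaling by the median ratio or Hprt, the highest transcript, dropping the rows of microRNAs and snoRNAs, a fold of 1.25 (0.32 on the log2 scale), and, added after the data were seen, centring by GC class.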

Additional observations from a re-analysis of the deposited data

How the results depend on the processing

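With 1 library per group nothing could be left out, and no alternative supplies a replicate error. No paired analysis was possible because each group is 1 pool and no result comes from a test. No member was 2-fold apart under any alternative run. Runs with other thresholds or no filter kept the added 1 TPM. Genes under 1 TPM in both pools could not reach 2-fold there. As plain ratios, Itgad and Itgax were 2.57 times as high in the KLH pool and Itgal 2.08 times as high in the alum pool. All of these were under 1 TPM, and the smaller pseudocounts were used only with the 3 TPM filter. With a limit of 0.32 in place of 1 on the log2 scale, 1 integrin gene was lower, Itga3. The number of members detected moved most with the threshold. At 1 TPM it was 25 matrix and 14 integrin genes in each pool, and at 10 TPM 6 matrix genes in each pool. Integrin genes detected in the KLH pool were 7 for the highest transcript, without Itga3 and Itgb5, and 8 relative to Hprt, without Itgb5. The median log2 ratio stayed within 0.1 of its value under every alternative, but it is near 0 and its sign was not stable. For integrins it was -0.080 relative to Hprt, -0.060 for the highest transcript, -0.038 after centring by GC class, -0.043 with no filter and -0.029 at 1 TPM, and for matrix genes 0.053 after centring by GC class. Of 175 values for single genes, 174 moved by less than the SD of genes of like level. The exception was Col25a1, at -0.24 for its highest transcript. Itgb5 also shifted, from 0.046 to -0.48 for its highest transcript, but its SD of genes of like level was wide, at 0.59. The sign held under all 7 alternatives for 16 of the 25 genes, Itga3, Col4a1 and Itga7 among them. Scaling by the median ratio of the pools shifted all genes by 0.022 and scaling by Hprt by -0.085 on the log2 scale.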

Other observations

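Receptors of the matrix other than integrins were abundant in both pools. Of 17 such genes 15 were above 3 TPM, with a median log2 ratio of -0.028 and none of the 15 2-fold apart. Cd44, which encodes the hyaluronan receptor, was at 409.1 TPM in the alum pool and 409.7 TPM in the KLH pool, close to Itgb1. The heparan sulfate proteoglycan gene Sdc4 was at 268.8 and 261.8 TPM, Cd47, which encodes a thrombospondin receptor that associates with integrin αv, at 217.5 and 202.9 TPM, and the sarcoglycan gene Sgcb at 136.1 and 139.1 TPM.

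Among 20 genes of matrix proteases and their inhibitors 8 were above 3 TPM. The highest genes were inhibitors, though not every inhibitor lay above the proteases. Timp2 was at 578.7 and 513.7 TPM and Timp3 at 273.5 and 270.7 TPM. Timp1 was at 14.8 and 16.3 TPM, and the highest protease, the membrane-bound Mmp16, at 12.4 and 11.8 TPM. The median log2 ratio of the 8 genes was -0.12, with none of them 2-fold apart.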
